A study of Mus musculus with 15 samples.

Results

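The genes described here encode the mitochondrial machinery of oxidative phosphorylation, complexes I to V, in fast-spiking interneurons of the mouse cortex between postnatal day (P) 7 and P40. They were taken by symbol, as the subunits, isoforms and complex-named assembly factors of NADH dehydrogenase (Nduf), succinate dehydrogenase (Sdh), the cytochrome bc1 complex (Uqcr and Cyc1), cytochrome c (Cycs), cytochrome c oxidase (Cox4 to Cox8) and ATP synthase (Atp5). The rule reads symbols only. Of 18193 genes that could be read from a probe set annotated to a single gene, 92 belonged to the set, and 85 of them were tested among 9663 genes whose probe set exceeded 5 on the log2 scale, the limit taken for background, in at least 3 of 15 arrays. The other 7, Ndufb4, Cox4i2, Cox6b2, Cox7b2, Cox8b, Cox8c and Ndufa4l2, did not exceed 5 on any array.

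The cells carried the GFP label of G42 mice and were picked by hand from dissociated slices of the primary somatosensory cortex (S1), and every group carries the same transgene label. In G42 mice a Gad1 promoter transgene marks a subset of parvalbumin-class, fast-spiking interneurons, and cells without the label were not picked. The groups were 5 ages, P7, P10, P15, P25 and P40 (the last covering P40 to P45), each with 3 animals, 1 array per animal and no treatment. Between 23 and 85 cells were pooled per animal, and their RNA was amplified in 2 rounds before it reached Affymetrix whole-genome mouse arrays.

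Oxidative phosphorylation passes electrons from NADH (complex I) and succinate (complex II) through complex III, cytochrome c and complex IV to oxygen, and complex V uses the proton gradient so formed to make ATP. Core subunits hold the flavins, iron-sulfur clusters, haems or catalytic sites, accessory subunits surround them, and assembly factors help to build a complex without staying in it. Fast-spiking interneurons fire at high rates and are known for dense mitochondria and a high demand for ATP.

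Technical signs differed between the arrays. The identity of the cells was checked on marker lists. Of 7 markers of parvalbumin interneurons, 6 exceeded 5 on at least 1 array at P40 and 6 at P7. Pvalb was among the 6 at P40, and Erbb4 took its place at P7. None of 5 excitatory neuron markers, 6 endothelial and mural markers or 2 blood markers exceeded 5 at any age. The oligodendrocyte markers Mbp and Cnp exceeded 5 on every array. Between 1 (P40) and 5 (P25) of 7 astrocyte markers exceeded 5 on at least 1 array of an age. The microglia markers Csf1r and C1qb did so at P7, and Csf1r at P10. Sst, Npy and Cck, markers of other interneurons, exceeded 5 on every array from P7 to P25, and 2 of them did so at P40. Npy averaged 12.27 at P40 and 10.92 at P7, and Cck 11.96 and 8.41 at the same ages. Sst differed widely among the P40 arrays (8.34 ± 5.76, SD, n = 3). Pvalb itself averaged 14.28 at P40 and 3.62 at P7. The difference between the 3′ and 5′ beta-actin controls, which grows when the amplified RNA is shorter, averaged 5.77 ± 0.98 over the P7 arrays, 5.73 ± 0.37 over the P10 arrays, 4.50 ± 1.29 over the P15 arrays, 5.31 ± 0.68 over the P25 arrays and 3.93 ± 0.55 over the P40 arrays (log2, SD, n = 3 each). For the spiked hybridization controls, P15 replicates 2 and 3 gave means of 2.45 and 2.43, and no other array gave less than 9.18. The part of these differences in the results was not tested beyond the values given beside them.

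Setting P40 against P7 addresses the change of respiratory transcripts over the whole span of maturation sampled. Of the 85 genes tested, 41 rose at P40 and 2 fell (limma, Benjamini-Hochberg adjusted p under 0.05 over all 9663 genes), whereas 45.2% of all genes tested were called, 27.5% higher and 17.6% lower. The share called higher was 48.2% of the set. The median difference was 0.46 on the log2 scale, against 0.18 over all genes tested, and the single differences ran from -1.66 for Cox7c to 3.57 for Cox6a2. Most rises were small: 17 of the 41 were at least 2-fold and 24 were under 2-fold. Over all genes tested, 2144 of the 2662 called higher rose at least 2-fold. The 3 P40 arrays and the 3 P7 arrays did not overlap for 42 of the 43 genes called, the exception being Uqcrb. Those genes were called on the same arrays, so their separation follows largely from the call and adds no separate evidence. Over the whole set, 53 of 85 genes were higher on every P40 array than on every P7 array, and the same held for 3203 of all 9663 genes. In pooled cells, more cells with a transcript and more transcript per cell cannot be told apart. The 3′ minus 5′ beta-actin difference was lower at P40 than at P7, as given above, and 38 to 60 cells were picked per animal at P40, against 52 to 85 at P7. Summed log2 values of the 7 astrocyte markers ran from 20.7 to 25.7 at P40 and from 22.2 to 27.7 at P7, and those of 5 oligodendrocyte markers from 22.5 to 25.5 and from 26.2 to 27.5 at the same ages. Of 5 microglia markers none exceeded 5 on any array at P40 and 2, Csf1r and C1qb, did at P7, with sums from 16.9 to 17.6 at P40 and from 19.3 to 22.1 at P7. The part of such RNA in these results was not tested.

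Complex I had 24 of 41 tested genes called higher (58.5%) and none lower, with a median difference of 0.56. Complex II had 3 of 4 called higher (75.0%, median 0.67), and complex III had 5 of 9 higher (55.6%) and 1 lower (median 0.49). Complex IV had 4 of 13 higher (30.8%) and 1 lower, with a median of 0.14, which lay below the 0.18 of all genes tested. Complex V had 5 of 17 higher (29.4%) and none lower (median 0.33), and Cycs was not called. Among all genes tested 27.5% were called higher, so the shares of complexes IV and V lay close to that of all genes. The complexes also differed in the level of their probe sets. Cox5a, Cox5b, Cox6a1, Cox6b1 and Cox7a2 of complex IV had P7 means over 14. All genes tested over that level had a median of -0.19, with 8.49% called higher, so the 0.18 over all levels is an unlike yardstick for them. The differences also depend on the probe set used, as given below. Whether the complexes differ from each other was not tested.

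**Figure D1:**
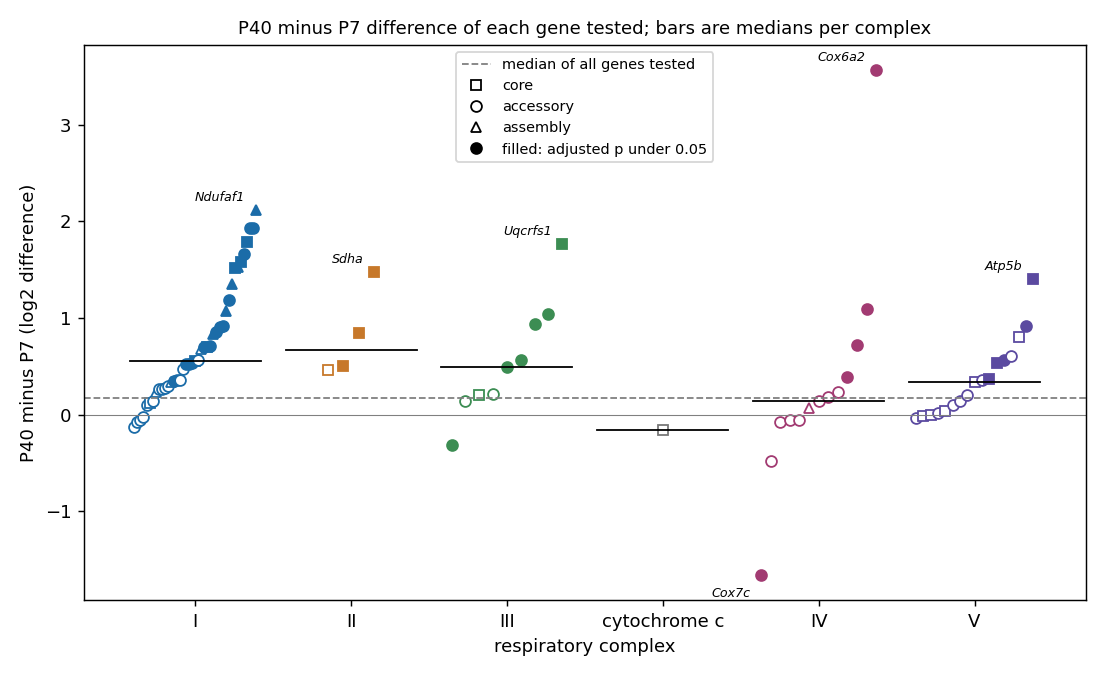
P40 minus P7 difference of each of the 85 genes tested (y axis, log2) by respiratory complex (x axis), with squares for core subunits, circles for accessory subunits, triangles for assembly factors, filled symbols for an adjusted p under 0.05 and bars for the median of each complex. The bars of complexes I, II and III stand at 0.56, 0.67 and 0.49, and that of complex IV at 0.14, under the dashed line at 0.18 for all genes tested.

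Promoter sequence was available from RefSeq (GRCm38.p6) for 75 of the 92 genes, as 80 windows around annotated starts. Windows were searched on both strands for GCGCATGC, a form of the site bound by nuclear respiratory factor 1 (NRF-1), for CCGGAAG, a core of the sites bound by ETS factors such as GABP, and for TCAAGGTCA, the site of oestrogen-related receptors (ERR). NRF-1 and GABP are known activators of nuclear genes for respiratory subunits. The NRF-1 letters were present in 12 of the 80 windows, against 2.71% of 32851 promoters of the same length. The ETS letters were present in 19 windows (23.8%, against 8.86%), and the ERR letters in 2 windows, those of Atp5g3 and Sdhd (2.50%, against 0.423%). The NRF-1 letters overlap their own reverse complement, GCATGCGC, so a longer site can match on both strands, and each window was counted once. Contrasting windows are shown, because all 3 genes rose at P40: Ndufa6 with an NRF-1 match, Cox8a with a pair of ETS matches and Sdha with none of these letters. Matches stand in capitals, and each sequence is written 5′ to 3′ on the strand of its gene, here the minus strand for all 3: Ndufa6 at chr15:82354242-82354541, Cox8a at chr19:7217567-7217866 and Sdha at chr13:74350191-74350490. A match describes the letters and is not evidence of binding.
Ndufa6: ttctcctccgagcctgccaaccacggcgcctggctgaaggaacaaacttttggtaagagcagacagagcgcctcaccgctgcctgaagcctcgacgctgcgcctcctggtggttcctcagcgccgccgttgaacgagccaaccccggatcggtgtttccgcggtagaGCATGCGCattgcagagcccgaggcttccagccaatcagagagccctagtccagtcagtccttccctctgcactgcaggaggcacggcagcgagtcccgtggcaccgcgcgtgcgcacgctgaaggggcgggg
Cox8a: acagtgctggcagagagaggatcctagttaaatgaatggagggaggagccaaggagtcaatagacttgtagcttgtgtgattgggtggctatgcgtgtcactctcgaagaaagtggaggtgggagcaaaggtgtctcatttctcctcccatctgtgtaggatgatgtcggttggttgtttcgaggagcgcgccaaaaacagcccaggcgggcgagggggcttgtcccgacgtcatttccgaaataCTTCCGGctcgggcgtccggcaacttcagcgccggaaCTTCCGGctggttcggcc
Sdha: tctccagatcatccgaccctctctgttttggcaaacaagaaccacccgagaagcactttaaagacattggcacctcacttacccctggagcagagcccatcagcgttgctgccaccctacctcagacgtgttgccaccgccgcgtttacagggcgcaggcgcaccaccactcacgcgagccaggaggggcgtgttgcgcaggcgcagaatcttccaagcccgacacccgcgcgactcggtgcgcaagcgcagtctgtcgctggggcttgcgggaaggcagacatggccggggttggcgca

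The core of complex I rose almost throughout. Of its 6 nuclear-encoded core subunits tested, 5 were called higher at P40 (83.3%, against 27.5% of all genes tested), with a median difference of 1.11. Ndufs1, which holds iron-sulfur clusters in the peripheral arm, read 11.29, 10.83 and 10.35 on the P7 arrays, 10.26, 11.03 and 12.15 on the P10 arrays, 12.26, 12.43 and 12.71 on the P15 arrays, 12.35, 12.05 and 11.79 on the P25 arrays and 12.81, 12.29 and 12.74 on the P40 arrays. Every P15, P25 and P40 array was above every P7 array, and the P10 arrays spread across both ranges. Ndufs1 was 3.46-fold higher at P40 than at P7 (log2 difference 1.79, SE 0.37, limma adjusted p = 0.0012). Ndufs8, another iron-sulfur subunit, read 14.51, 14.75 and 14.47 at P40, against 13.32, 13.18 and 12.67 at P7, and was 2.87-fold higher (adjusted p = 0.00021). Its P10 replicate 1, at 14.62, already lay in the P40 range, and the other P10 arrays, at 13.43 and 13.69, did not. Ndufs3, a scaffold of the quinone-reducing part, rose 2.99-fold, although its P7 values were scattered at 11.69, 11.43 and 10.13. With the beta-actin 3′ minus 5′ difference as a covariate its log2 difference was 0.90 (adjusted p = 0.18), so that call rests on the fit without it. Ndufv1, which binds the flavin that takes electrons from NADH, rose 1.63-fold, and Ndufs7, next to the quinone site, rose 1.47-fold. Ndufv2, an iron-sulfur subunit beside Ndufv1, averaged 14.25 ± 0.08 at P40 and 14.12 ± 0.06 at P7 (SD, n = 3 each) and was not called (adjusted p = 0.38), while a further probe set gave 1.246.

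Among 27 accessory subunits of complex I, 14 rose (51.9%) and none fell (median 0.47). Over all genes tested 27.5% were called higher and 17.6% lower, with a median of 0.18. The largest rises in this group were those of Ndufa6 (3.82-fold), Ndufs5 (3.81-fold) and Ndufab1 (3.17-fold). Ndufa6, a small subunit of the peripheral arm whose promoter is printed above, read 12.97, 12.59 and 13.05 at P40, against 11.66, 10.50 and 10.66 at P7 (log2 difference 1.93, SE 0.30, limma adjusted p = 0.00015). All P40 arrays exceeded all P7 arrays, and P7 replicate 1 stood about a log2 unit above the other P7 arrays. Ndufs5, on the outer side of the membrane arm, read 12.65, 12.26 and 12.67 at P40, against 11.14, 10.47 and 10.18 at P7 (adjusted p = 7e-05). Ndufab1, the mitochondrial acyl carrier protein, read 13.42, 13.65 and 13.17 at P40, against 12.40, 11.45 and 11.41 at P7, but a further probe set of the gene gave a difference of -0.09. By position in the complex, 6 of 9 accessory subunits of the peripheral arm rose (66.7%, median 0.47). In the membrane arm or at its junction 8 of 18 did (44.4%, median 0.44). Ndufc2, Ndufb9, Ndufb11 and Ndufb1, all of the membrane arm, had differences between -0.13 and -0.02 and were not called. That direction rests on the probe set used for 3 of them: further probe sets gave up to 1.22 for Ndufc2, 0.85 for Ndufb9 and 1.07 for Ndufb11.

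Of 8 assembly factors of complex I tested, 5 rose (Ndufaf1, Ndufaf3, Ndufaf7, Ndufaf5 and Ndufaf8), and the median of the 8 was 0.95. The share called higher was 62.5%, against 27.5% of all genes tested. Ndufaf1, part of the assembly intermediate that builds the membrane arm, read 8.47, 7.66 and 7.44 on the P7 arrays, 9.06, 8.40 and 9.13 on the P10 arrays, 9.67, 10.35 and 10.32 on the P15 arrays, 9.95, 9.56 and 9.98 on the P25 arrays and 10.09, 9.94 and 9.88 on the P40 arrays. The P7 and P10 ranges overlapped by a small margin, and all later arrays lay above both. Ndufaf1 was 4.33-fold higher at P40 than at P7 (SE 0.31, limma adjusted p = 7.1e-05). Ndufaf3, needed early in the building of the peripheral arm, was 2.88-fold higher, with 9.73, 9.85 and 9.48 at P40, against 8.70, 8.01 and 7.76 at P7. Ndufaf7, an arginine methyltransferase, rose 2.55-fold, Ndufaf5, an arginine hydroxylase, 2.10-fold, and Ndufaf8, a partner of Ndufaf5, 1.79-fold. Ndufaf2, Ndufaf4 and Ndufaf6 had differences of 0.68, 0.24 and 0.34 and were not called.

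Complex II, which is also an enzyme of the tricarboxylic acid cycle, is encoded entirely in the nucleus, and all of its 4 subunits were measured. Sdha, the flavoprotein that oxidises succinate, read 11.83, 12.44 and 11.63 on the P7 arrays, 12.65, 12.37 and 12.78 on the P10 arrays, 12.97, 13.29 and 13.25 on the P15 arrays, 13.34, 13.27 and 13.36 on the P25 arrays and 13.55, 13.30 and 13.48 on the P40 arrays. Unlike most of the set, its mean at P25 was not below that at P15, and the P40 mean was 1.48 above the P7 mean (SE 0.18). Sdhb, the iron-sulfur subunit, rose 1.41-fold, with 13.39, 13.79 and 13.51 at P40 and 13.06, 13.19 and 12.94 at P7 (adjusted p = 0.02). Of the membrane anchors, Sdhc rose 1.80-fold (adjusted p = 0.034), although a further probe set of the gene gave -0.34. Sdhd read 11.06, 10.01 and 10.85 at P40 and 10.43, 10.29 and 9.81 at P7, and these overlapping values were not called (limma adjusted p = 0.25). Its other probe set gave a difference of 1.76.

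In complex III, Uqcrfs1, the Rieske iron-sulfur protein, read 12.95, 12.70 and 12.82 at P40, against 12.12, 10.64 and 10.41 at P7, and was 3.39-fold higher (log2 difference 1.76, SE 0.39, limma adjusted p = 0.002). The P7 replicates differed by more than a log2 unit among themselves, and even the highest of them lay below every P40 array. Uqcrc1, a structural subunit on the matrix side, had tighter replicates, with 13.05, 13.24 and 13.09 at P40 and 12.05, 12.08 and 12.12 at P7, and rose 2.06-fold (adjusted p = 9.1e-05). Its partner Uqcrc2 rose 1.41-fold, and the small subunits Uqcrh and Uqcr10 rose 1.91-fold and 1.48-fold. Cyc1, the haem protein cytochrome c1, averaged 13.69 ± 0.04 at P40 and 13.48 ± 0.15 at P7 (SD, n = 3 each) and was not called. Uqcrb, a subunit near the quinone site, was called lower, with 14.07, 14.13 and 14.29 at P40 and 14.17, 14.64 and 14.62 at P7. That difference of -0.31 (adjusted p = 0.041) comes from overlapping arrays and was lost in 8 of the 15 fits that left out an array, with -0.23 without P7 replicate 2, and a further probe set gave 0.27.

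Cycs, the mobile carrier between complexes III and IV, had means of 13.96 (P7), 14.13 (P10), 14.22 (P15), 14.03 (P25) and 13.80 (P40). The P40 minus P7 difference of -0.16 was not called (limma adjusted p = 0.23), while the F test over all ages was. Its other probe sets differed: they gave 0.43, 0.52 and 3.41, and their mean with the probe set used gave 1.05 (adjusted p = 3.5e-05). The direction for this gene therefore depends on the probe set.

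In complex IV, the 3 catalytic subunits are encoded in mitochondrial DNA, so the nuclear genes measured are accessory subunits and their isoforms. Cox6a2, the form of subunit VIa best known from heart and skeletal muscle and also found in parvalbumin interneurons, had the largest difference of the 85 genes. It read 7.75, 8.43 and 7.95 on the P7 arrays, 10.23, 9.98 and 9.65 on the P10 arrays, 11.23, 11.62 and 10.85 on the P15 arrays, 11.09, 11.22 and 11.63 on the P25 arrays and 11.33, 11.63 and 11.87 on the P40 arrays. The P7, P10 and P15 arrays formed 3 separate ranges, and the P15, P25 and P40 ranges overlapped. Cox6a2 was 11.8-fold higher at P40 than at P7 (log2 difference 3.57, SE 0.27, limma adjusted p = 1.6e-07), and its other probe set gave 5.51. It was the only gene of the set called in the first step, P10 over P7. The general isoform Cox6a1 read 14.96, 14.90 and 14.98 at P40 and 14.66, 14.87 and 14.90 at P7 and was not called (adjusted p = 0.21). Its difference was 0.14 by the probe set used and 0.65 by its other probe set.

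The other isoform families were measured mainly through their general forms. Cox4i2, the hypoxia-related form, stayed at background, at 2.48 at P40 and 2.67 at P7, while the general form Cox4i1 read 14.15, 14.08 and 14.05 at P40, against 13.55, 13.31 and 13.24 at P7, and rose 1.65-fold (adjusted p = 0.00049). Cox8a, the general form of subunit VIII, whose promoter is printed above, rose 2.14-fold, with 11.59, 11.44 and 12.002 at P40 and 10.56, 10.28 and 10.91 at P7. The muscle form Cox8b averaged 3.10 at P40 and 2.67 at P7, and Cox8c, known from testis, 1.32 and 1.35 at the same ages. Cox7a1, a muscle form of subunit VIIa, lay just over the limit, at 5.31 ± 0.62 at P40 and 5.79 ± 0.31 at P7 (SD, n = 3 each), and neither it nor the general form Cox7a2 (difference -0.05) nor the supercomplex factor Cox7a2l (0.07) was called. Cox6b1, the general form of subunit VIb, was not called (0.18), and its testis form Cox6b2 averaged 4.40 at P15 and at most 2.67 at every other age, all under 5. Cox7b2 and the hypoxia-induced Ndufa4l2 stayed under 5 on every array, while Ndufa4, a subunit now placed in complex IV, rose 1.31-fold (adjusted p = 0.037).

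Cox5a and Cox5b, which bind the matrix side of the enzyme, had differences of -0.05 and -0.08 and were not called, although further probe sets gave up to 0.62 for Cox5a and 0.70 for Cox5b. Cox7c was called lower, with 5.95, 6.87 and 6.16 at P40 and 9.0015, 6.98 and 7.96 at P7. The difference of -1.66 (SE 0.60, limma adjusted p = 0.035) rests on widely spread P7 arrays, and the call was lost when P7 replicate 1 (-1.15) or 3 (-1.67) or P40 replicate 1 (-1.47) or 3 (-1.57) was left out. Probe sets annotated to several genes were left out, 10 of which matched the symbol rule.

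In complex V, Atp5b, the catalytic beta subunit of the F1 head, read 13.48, 12.77 and 12.53 on the P7 arrays, 12.39, 12.65 and 13.69 on the P10 arrays, 13.85, 14.42 and 14.42 on the P15 arrays, 14.20, 13.9985 and 13.99 on the P25 arrays and 14.37, 14.27 and 14.33 on the P40 arrays. All arrays from P15 on lay above all P7 and P10 arrays. Atp5b was 2.64-fold higher at P40 than at P7 (log2 difference 1.40, SE 0.29, limma adjusted p = 0.0012). The alpha subunit Atp5a1 rose 1.29-fold (adjusted p = 0.044), a call lost in 11 of the 15 fits that left out an array, and its further probe sets gave -1.35 and 1.17. The gamma, delta and epsilon subunits of the central stalk, Atp5c1, Atp5d and Atp5e, had differences of 0.33, -0.02 and 0.00 and were not called, although the other probe set of Atp5d gave 1.09.

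Among the 3 genes for the identical c subunit of the rotor ring, Atp5g1 rose 1.44-fold (adjusted p = 0.011), while Atp5g2, at 0.80, and Atp5g3, at 0.04, were not called. In the peripheral stalk, 2 of 4 genes rose (50.0%, against 27.5% of all genes tested). Atp5j averaged 13.70 ± 0.04 at P40 and 12.78 ± 0.19 at P7 (SD, n = 3 each, 1.89-fold, limma adjusted p = 0.00012). Atp5o, the oligomycin-sensitivity subunit, rose 1.48-fold. None of the 5 small subunits of the membrane part was called.

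**Figure D2:**
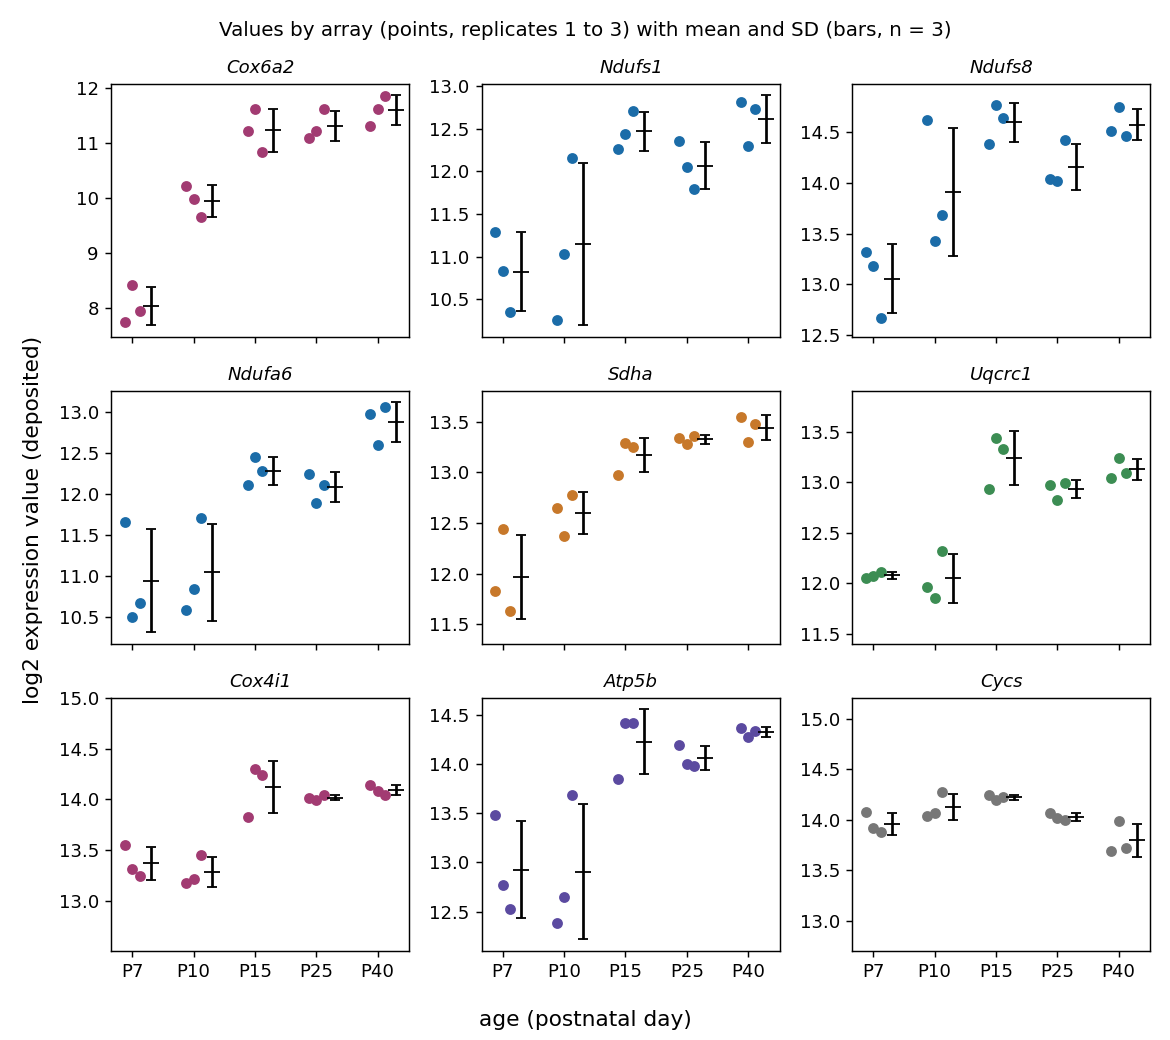
Deposited log2 values (y axis) of 9 genes by age (x axis), with a point for each array and bars for the mean and SD of 3 arrays. Cox6a2 climbs from P7 through P15 and then levels near 11.3 to 11.6, Ndufs1, Ndufs8, Ndufa6, Uqcrc1, Cox4i1 and Atp5b sit higher from P15 on, and Cycs ends at 13.80, close to its P7 mean of 13.96.

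Taken by role over all complexes, 12 of 21 core genes rose (57.1%) and none fell (median 0.53). The core group counted here is wider than redox and catalytic subunits: it includes Cycs and, in complex V, the whole F1 head, central stalk and c ring. Of 55 accessory subunits 24 rose (43.6%) and 2 fell (median 0.36), and 5 of 9 assembly factors rose (55.6%) and none fell (median 0.84). Among all genes tested 27.5% were called higher. In complex I 5 of 6 core subunits rose, and in complex V 3 of 8 did. The assembly factors were measured at lower log2 values than most subunits, and values of different probe sets cannot be ranked as amounts. The differences between the roles were not tested.

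The differences were also read by the level of the probe set at P7. The 31 genes with a P7 mean under 12 had a median difference of 0.85, with 18 called higher and 1 lower (58.1% and 3.23%, against 28.4% and 16.2% of all genes tested in that band). The 38 genes between 12 and 14 had a median of 0.38, with 19 higher and none lower (all genes tested, 19.4% and 31.6%). The 16 genes over 14 had a median of 0.16, with 4 higher and 1 lower (all genes tested, 8.49% and 40.6%). All genes tested showed medians of 0.23, -0.14 and -0.19 in the same bands, so the set lay above all genes in each. The P7 level enters the difference itself, and the arrays read no higher than 16.13, so the bands are a description only.

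Between P7 and P10 the set hardly moved. Cox6a2 was called higher, by 3.77-fold (log2 difference 1.91, SE 0.27, limma adjusted p = 0.00068), and no other gene was called in either direction, where 3.60% of all genes tested were called, 2.37% higher and 1.23% lower. The median difference of the 85 genes was 0.07, and P10 replicates spread widely for Ndufs1, Uqcrfs1 and Atp5b, with replicate 3 the highest of the 3 for each.

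The step from P10 to P15 held most of the change. At P15, 30 of 85 genes were called higher and none lower, against 11.4% of all genes tested called, 8.57% higher and 2.79% lower, and the median difference was 0.43, against 0.20 over all genes tested. Ndufaf7 rose 3.10-fold and Uqcrfs1 2.98-fold, the largest rises of the step, and 54 of 85 genes were higher on every P15 array than on every P10 array (2017 of all 9663 genes). By complex the rises were 15 of 41 in complex I, 1 of 4 in complex II, 3 of 9 in complex III, 4 of 13 in complex IV and 7 of 17 in complex V. Over the 41 genes that rose between P7 and P40, the median share of the rise reached was 13.97% by P10, 98.0% by P15 and 77.6% by P25. That share was not computed over all genes tested, whose median difference was 0.20 in this step and 0.18 for P40 minus P7.

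The number of these calls depended on single arrays. Without P15 replicate 2 the count fell to 5, without P15 replicate 3 to 9, without P10 replicate 1 to 12, without P10 replicate 2 to 9, and without both P15 replicates 2 and 3, the arrays with hybridization controls at background, to 0, a fit in which the lone P15 array is assumed to vary like the other ages. P15 replicate 1 alone, whose controls read like those of the other ages, was higher than every P10 array for 65 of 85 genes (3022 of all 9663 genes). Its median shift from the P7 mean was 0.46 over the 85 genes and 0.05 over all genes tested, while replicates 2 and 3 had 0.62 and 0.50 over the 85 genes and 0.27 and 0.23 over all genes. Fewer cells were picked at P15, 23 to 45 per animal, than at P10, 47 to 72, and with the number of cells as a covariate none of the 85 genes was called in this step, and with the 3′ minus 5′ difference 6 were. The median difference of the 85 genes was 0.35 with the number of cells (0.12 over all genes tested), 0.44 with the 3′ minus 5′ difference (0.12 over all genes) and 0.39 without P15 replicates 2 and 3 (0.09 over all genes), against 0.43 and 0.20 in the fit reported. Of 7 astrocyte markers, 2 exceeded 5 on at least 1 array at P15 and 4 did at P10, with summed log2 values from 21.3 to 25.8 at P15 and from 26.7 to 38.2 at P10. The part of such RNA in this step was not tested.

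**Figure D3:**
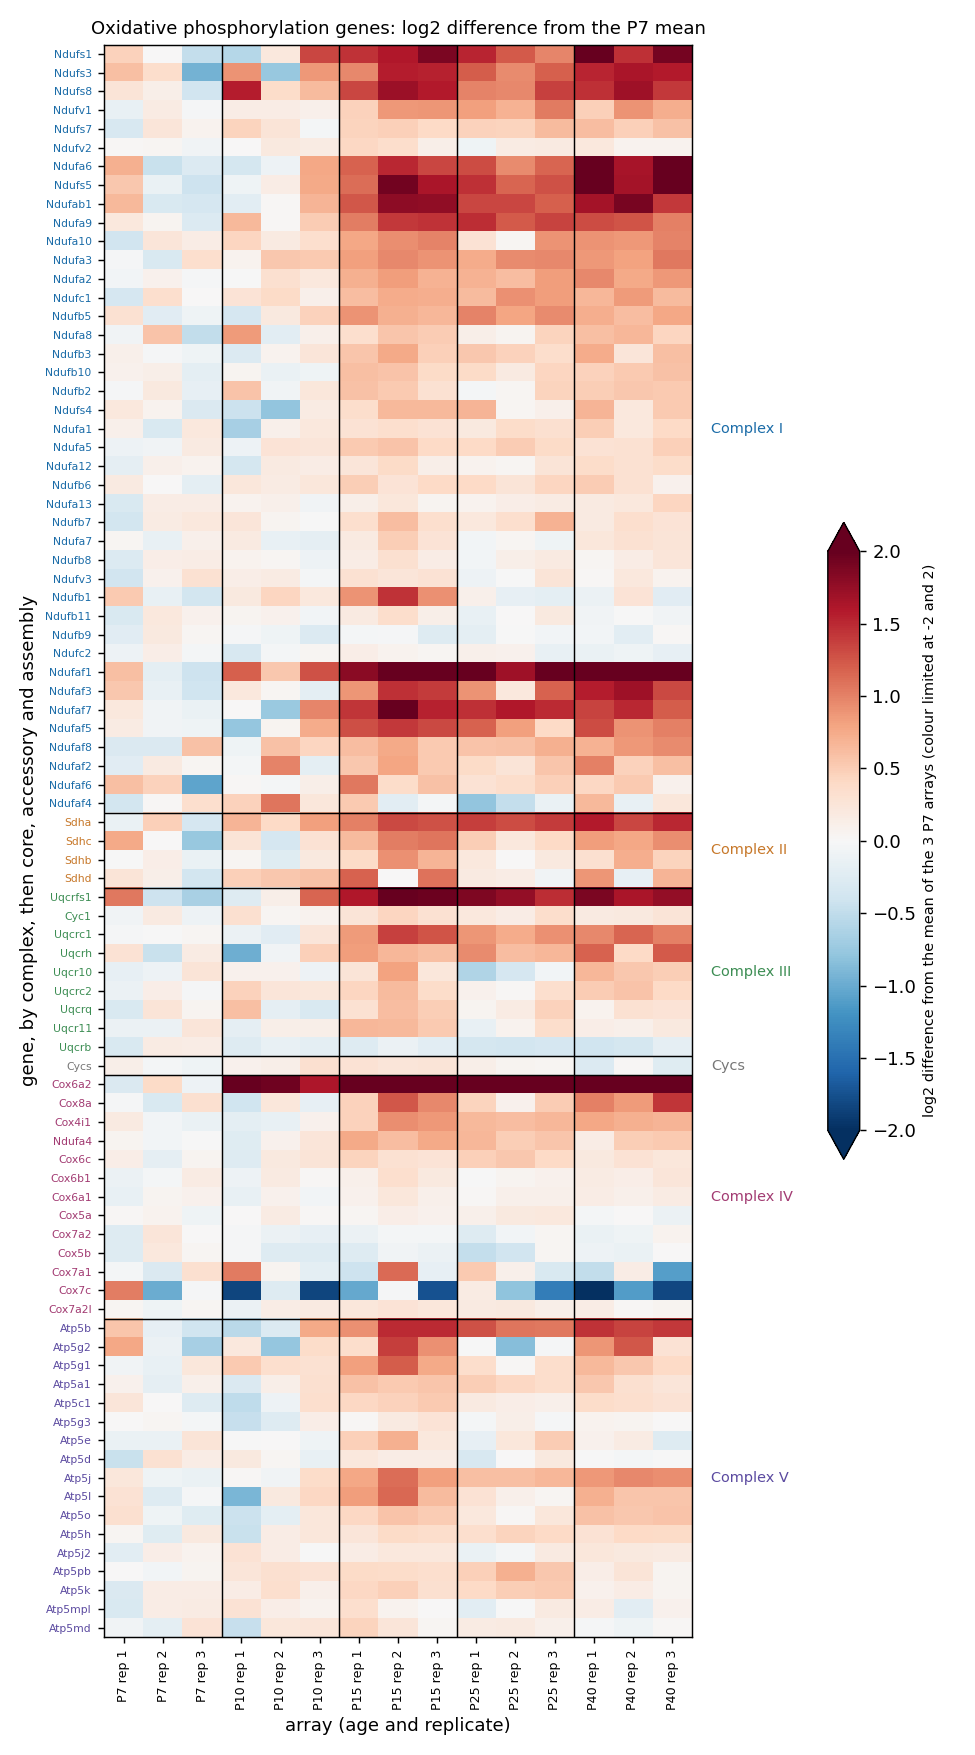
Difference of each of the 85 genes tested (rows, by complex and then by core, accessory and assembly role) from its mean over the 3 P7 arrays, on each of the 15 arrays (columns, P7 to P40), in log2 units with the colour limited at -2 and 2. The row of Cox6a2 is already dark at P10 and that of Ndufaf1 partly so, the rows of Ndufs1, Ndufa6, Sdha, Uqcrfs1 and Atp5b are darkest from P15 on, and most rows of complex IV stay pale.

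At P25 the levels were on the whole slightly under those of P15. The P25 mean was below the P15 mean for 70 of 85 genes, and the median difference was -0.18, against 0.01 over all genes tested. Of single genes, 3 were called lower and none higher, against 4.86% of all genes tested called, 2.49% lower and 2.37% higher. Atp5g1 read 13.13, 12.80 and 13.12 at P25 and 13.60, 13.99 and 13.54 at P15 (log2 difference -0.69, limma adjusted p = 0.019). Ndufb1, a small membrane-arm subunit close to the background limit, and Uqcr10 fell by 1.17 and 0.77 on the log2 scale (adjusted p = 0.047 and 0.049). None of the 85 genes was called in this step without P15 replicate 2, without P25 replicate 2 or without both P15 replicates 2 and 3, and other probe sets of Atp5g1 and Uqcr10 moved the mean of their probe sets to 0.14 and 0.13. P25 was also the age with the highest summed log2 values of the 5 oligodendrocyte markers, from 31.9 to 36.3, against 25.3 to 28.5 at P15. At P25, 3 of 5 exceeded 5 (Mbp, Mobp and Cnp), and at P15 Mbp and Cnp did. Of the single markers, Mbp and Mobp had their highest means at P25 (11.21 and 7.47). Cnp was highest at P7 (10.75, against 9.79 at P25), and Mog and Mag were also highest at other ages. The sums of the 7 astrocyte markers were also higher, from 28.4 to 41.2 at P25, against 21.3 to 25.8 at P15. On at least 1 array, 5 of 7 exceeded 5 at P25 and 2 of 7 at P15. Aldh1l1 went the other way, with means of 2.80 at P25 and 3.53 at P15. The part of such RNA in the P25 levels was not tested.

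From P25 to P40 the only call was Atp5pb, the b subunit of the peripheral stalk, which read 14.10, 14.24 and 14.02 at P40 and 14.45, 14.69 and 14.52 at P25 (fell by 0.43 on the log2 scale, limma adjusted p = 0.048). Over all genes 0.673% were called in this step, 0.404% higher and 0.269% lower. The median difference of the 85 genes was 0.08. The call of Atp5pb was lost in 12 of the 15 fits that left out an array. Its other probe set did not fall in this step, with means of 11.33 at P25 and 11.44 at P40. The direction for this gene therefore depends on the probe set.

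**Figure D4:**
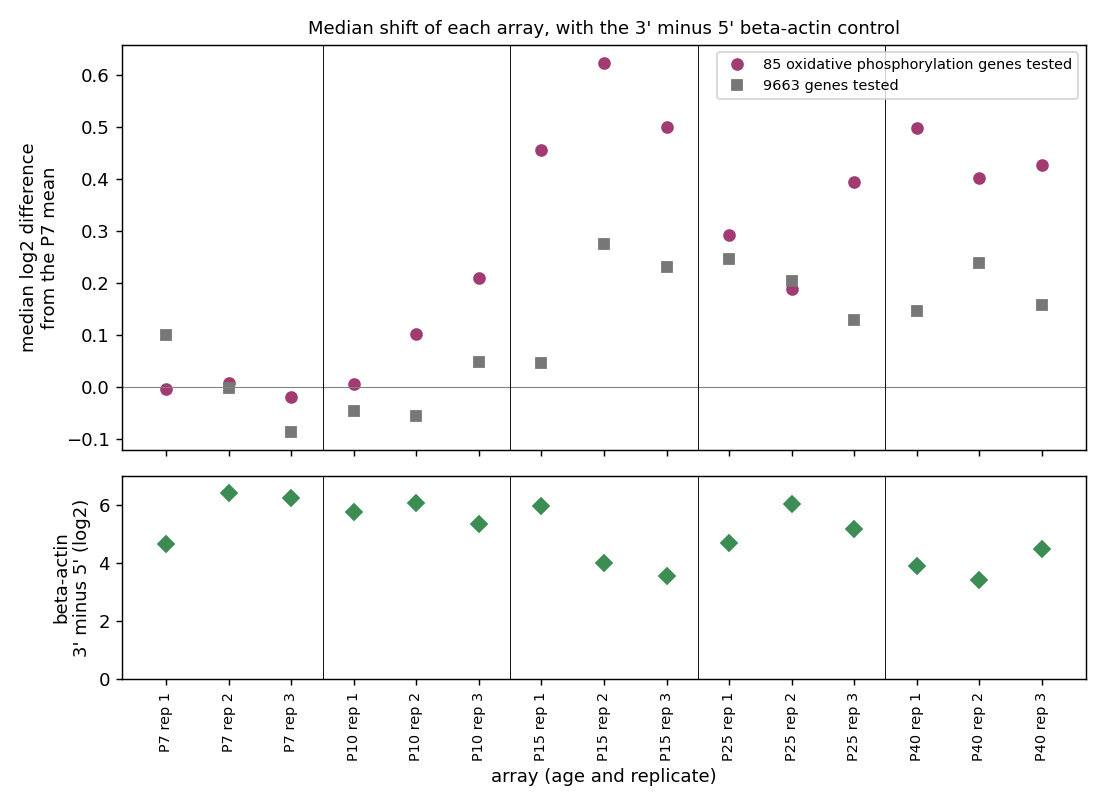
Upper panel, median log2 difference from the P7 mean on each of the 15 arrays (x axis) over the 85 genes of the set (circles) and over all 9663 genes tested (squares); lower panel, the beta-actin 3′ minus 5′ difference of the same arrays (log2). The 85 genes lie between 0.46 and 0.62 on the P15 arrays and between 0.40 and 0.50 on the P40 arrays, where all genes lie between 0.05 and 0.27 and between 0.15 and 0.24.

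Across any of the 5 ages, the moderated F test called 45 of the 85 genes, where 47.2% of all genes tested were called. Of the 43 genes called between P40 and P7, 27 kept the call when any 1 array was left out and 15 kept it under every setting tried: Ndufs1, Ndufs8, Ndufv1, Ndufa2, Ndufa3, Ndufa6, Ndufa9, Ndufc1, Ndufs5 and Ndufaf1 of complex I, Sdha of complex II, Uqcrc1 of complex III, Cox4i1 and Cox6a2 of complex IV and Atp5j of complex V. With array medians set equal, which puts the median of all genes at -0.04 in place of 0.18, 25 genes were called higher and 4 lower, and with the beta-actin 3′ minus 5′ difference as a covariate 23 were higher and none lower. With that covariate the median difference of the 85 genes was 0.40, against 0.05 over all genes tested, and with the number of cells it was 0.36, against 0.14. Among the rises whose calls were lost when an array was left out, Ndufa12 lost its call in 12 of the 15 fits, Atp5a1 in 11, Uqcr10 in 6, Sdhc in 5 and Ndufa4 in 4.

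More than a single probe set over background was available for 46 of the 85 genes. All of a gene's probe sets moved in 1 direction between P7 and P40 for 32 of them, and the signs differed for 14: Atp5a1, Atp5d, Atp5k, Cox5a, Cox5b, Cox7a2, Cycs, Ndufab1, Ndufb11, Ndufb9, Ndufc2, Ndufs4, Sdhc and Uqcrb. The probe set with the highest mean, which is the one used, had the lowest difference of the gene's probe sets for 30 of the 46 and the highest for 10. For Uqcr10, for instance, the probe set used gave 0.56 and the others 4.49 and 3.67, and for Ndufb5 the values were 0.70 and 2.16. With the mean of a gene's probe sets in place of the probe set used, 46 of 84 genes tested were called higher and 1 lower. The median difference was then 0.53, against 0.17 over all genes tested.

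Other genes of the pathway were read from lists kept apart from the set. Of 39 tested assembly factors outside the symbol rule, 18 rose at P40 (46.2%, against 27.5% of all genes tested) and 2 fell, with a median difference of 0.68. Atpaf1, a chaperone of the Atp5b subunit, averaged 12.02 ± 0.15 at P40 and 7.43 ± 1.03 at P7 (SD, n = 3 each), a 24.1-fold rise (limma adjusted p = 1.7e-06). Cox17, a copper chaperone of complex IV, rose 3.26-fold (adjusted p = 1.4e-06). Hccs, which attaches haem to cytochrome c, averaged 8.54 ± 0.26 at P40 and 9.92 ± 0.35 at P7 and fell by 1.38 on the log2 scale (adjusted p = 0.00041), and Lyrm2 fell by 0.79 (adjusted p = 0.033).

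Among 9 tested genes listed for energy exchange across the inner and outer mitochondrial membranes, 6 rose (66.7%, against 27.5% of all genes tested) and none fell. Ckmt1, the mitochondrial creatine kinase, rose 6.70-fold (limma adjusted p = 1.4e-05) and Vdac2, a channel of the outer membrane, 2.94-fold (adjusted p = 0.0036). Of 13 tested regulators of mitochondrial genes, 3 rose (23.1%, below the 27.5% of all genes tested) and none fell. Esrrg, an oestrogen-related receptor, averaged 11.55 ± 0.38 at P40 and 9.54 ± 0.17 at P7 (4.03-fold, limma adjusted p = 0.00046), and Esrra, its relative, rose 1.90-fold. Gabpb2, a GABP subunit, averaged 5.47 at P40 and 3.32 at P7. Its means at P10 and P15, 3.60 and 4.20, also lay under 5, so it was tested only through the P25 and P40 arrays. Ppargc1a, the coactivator of mitochondrial genes, averaged 13.57 ± 0.28 at P40 and 13.62 ± 0.07 at P7 and was not called (adjusted p = 0.84). Of the 13 subunits encoded in mitochondrial DNA, 1 was measured, ND5 of complex I, and its difference of 0.14 was not called.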

How the data were processed

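The labels' protocols describe hand-picked cells, RNA extraction and 2 rounds of T7 amplification. The authors deposited 1 log2 value per probe set and array, made with GCRMA per the submitters' processing notes; its version is not given in the sources used here. Values were used as deposited.

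Each gene took the brightest, by mean over 15 arrays, of its probe sets with 1 annotated gene, and was tested if this exceeded 5 in at least 3 of them. limma 3.58.1 (R 4.3.3) fitted the 5 ages on all 9663 genes, with a trended prior (10 residual and 4.85 prior degrees of freedom) and Benjamini-Hochberg adjustment within each contrast. A call is a two-sided adjusted p under 0.05. SE is moderated, and ± is the SD over 3 arrays. Precision is limited by the number of arrays.

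Named genes were the 10 largest rises and falls, core subunits, isoform families, assembly factors, the 2 largest changes per step, genes whose probe sets disagreed, and, in other lists, the 2 smallest adjusted p per direction. Genes named beyond these were chosen after their values were seen. The symbol rule reads no expression value, but the gene set and the lists were chosen with earlier results of these data known. Alternatives covered scaling, filters, probe sets, covariates, weights, a replicate block and left-out arrays. Figures used Python 3.11.15, pandas 2.3.3 and matplotlib 3.10.9.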

Additional observations from a re-analysis of the deposited data

How the results depend on the processing

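Counts in this section are of genes of the set, of which 85 were tested as reported, 92 with no filter and 84 with the mean of probe sets. Calls over all genes were not counted under the other settings. Rises between P7 and P40 numbered 41 as reported, 25 with equal array medians and 23 with the 3′ minus 5′ covariate, and 33 to 46 when 1 array was left out. The 2 falls became 4 with equal medians, 0 with the 3′ minus 5′ covariate, and 1 with quantile normalization, the mean of probe sets, the number of cells as a covariate, no trend in the prior, only the P7 and P40 arrays, or without P15 replicates 2 and 3, and 0 to 2 when 1 array was left out. Between P7 and P10 the single rise became 5 with quantile normalization and 2 with equal medians, the mean of probe sets or the 3′ minus 5′ covariate, and 1 to 2 when 1 array was left out. The 30 rises of P15 over P10 became 13 with equal medians, 19 with no filter, 6 with the 3′ minus 5′ covariate, 0 with the number of cells, 16 with no trend and 0 without P15 replicates 2 and 3, and 5 to 36 when 1 array was left out; array weights gave 1 fall. The 3 falls of P25 under P15 became 1 with the replicate block, the 3′ minus 5′ covariate or no trend, 0 with the number of cells or without P15 replicates 2 and 3, and 15 with array weights, which also gave 1 rise, and 0 to 4 when 1 array was left out. The single fall of P40 under P25 became 3 with no filter, 4 with array weights and 0 under each of quantile normalization, equal medians, values under 5 set to 5, the mean of probe sets, the replicate block, both covariates, no trend and the absence of P15 replicates 2 and 3, and 0 to 1 when 1 array was left out; rises numbered 1 with no filter and 10 with array weights, and 0 to 1 when 1 array was left out. Calls by the F test, 45 as reported, numbered 30 with the number of cells, 31 with equal medians, 32 with the 3′ minus 5′ covariate, 34 with no trend or without P15 replicates 2 and 3, and 57 with array weights, and 41 to 50 when 1 array was left out.

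With the mean of probe sets, the P40 minus P7 difference was 0.38 for Ndufb11, 1.05 for Cycs and 0.54 for Atp5d, and the P25 minus P15 difference was 0.13 for Uqcr10 and 0.14 for Atp5g1, each opposite in sign to the value of the probe set used. The P40 minus P7 sign also turned, with no call by either value, for Ndufc2 (0.47), Ndufb9 (0.24), Cox5a (0.18), Cox5b (0.21), Cox7a2 (0.13) and Atp5k (-0.21). The cause was not tested. Replicate numbers do not pair the arrays: deviations of arrays with the same number correlated at -0.05 on average over 30 pairs, 3 of them over 0.1. With the replicate block, rises between P7 and P40 numbered 40 and those of P15 over P10 numbered 22.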
